A study of Mus musculus with 2 samples.

Results

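Gata1 and 9 other regulators of granulocyte development were followed in lamina propria eosinophils and dendritic cells: Gata2, Zfpm1, Cebpa, Cebpb, Cebpd, Cebpe, Trib1, Runx1 and Id1. They were chosen by name with earlier results of these data known, as were the gene lists below. Counts of members and list genes beside those of all genes are therefore descriptions only. Every probe set (a group of short probes that reports 1 transcript region) whose only annotated gene was one of the members was kept. This gave 18 probe sets of 9 genes, of 22690 probe sets and 12393 named genes in all. Cebpe had no probe set annotated to it alone and was not analysed here. The eosinophils were CD11b+, CD11c(int), MHCII- and SiglecF+, and the dendritic cells were CD11c+MHCII+. Both were sorted from the small intestine of unstimulated C57BL/6 mice aged 8 weeks and were profiled on 1 array each. The labels do not say how many mice were pooled for either sort. With 1 array a group there is no replicate error and no test, and every difference below describes these arrays only.

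Granulocytes arise from myeloid progenitors under the control of a small set of transcription factors. GATA1 and GATA2 are zinc finger proteins that drive the eosinophil, mast cell, basophil, erythroid and megakaryocyte lineages. Mice that lack a high-affinity GATA site in the Gata1 promoter form no eosinophils. Zfpm1 encodes FOG-1, a cofactor that binds GATA factors and that holds back eosinophil fate in chicken progenitors. The C/EBP family of leucine zipper factors drives granulocyte maturation, with C/EBP-alpha acting early, C/EBP-epsilon late, and C/EBP-beta and C/EBP-delta in stimulated cells. TRIB1 is a pseudokinase that promotes degradation of C/EBP-alpha and is needed for normal eosinophil development in mice. RUNX1 is a core factor of blood stem and progenitor cells, and ID1 blocks DNA binding by E proteins, the basic helix-loop-helix factors of lymphocyte development.

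Promoters are shown for Gata1, Cebpb and Runx1, the genes that lay at least 4-fold apart between the arrays, and both Runx1 start sites are shown because its probe sets disagreed in direction. RefSeq promoters (GRCm38.p6) were found for 6 of the members, with 8 start sites in all. Each line gives the 250 bases before the start site, 5′ to 3′, and capitals mark E-boxes (CANNTG), the motif bound by E proteins.
Gata1, minus strand, chrX:7967911-7968160: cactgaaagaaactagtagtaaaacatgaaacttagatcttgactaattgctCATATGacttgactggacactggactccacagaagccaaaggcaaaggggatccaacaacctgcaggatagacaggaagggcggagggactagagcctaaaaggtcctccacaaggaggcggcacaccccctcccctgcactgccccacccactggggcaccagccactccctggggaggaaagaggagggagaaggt
Cebpb, plus strand, chr2:167688665-167688914: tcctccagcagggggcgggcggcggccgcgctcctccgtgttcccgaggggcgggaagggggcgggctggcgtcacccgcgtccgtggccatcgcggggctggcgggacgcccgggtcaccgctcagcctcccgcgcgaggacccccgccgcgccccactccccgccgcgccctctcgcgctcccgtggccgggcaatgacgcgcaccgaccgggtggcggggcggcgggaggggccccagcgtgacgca
Runx1 upstream start site, minus strand, chr16:92826075-92826324: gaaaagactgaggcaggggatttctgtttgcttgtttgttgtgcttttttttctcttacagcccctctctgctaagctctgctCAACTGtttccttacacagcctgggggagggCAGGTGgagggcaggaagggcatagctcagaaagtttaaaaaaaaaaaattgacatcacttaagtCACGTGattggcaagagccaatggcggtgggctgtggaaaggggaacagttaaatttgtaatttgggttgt
Runx1 downstream start site, minus strand, chr16:92697330-92697579: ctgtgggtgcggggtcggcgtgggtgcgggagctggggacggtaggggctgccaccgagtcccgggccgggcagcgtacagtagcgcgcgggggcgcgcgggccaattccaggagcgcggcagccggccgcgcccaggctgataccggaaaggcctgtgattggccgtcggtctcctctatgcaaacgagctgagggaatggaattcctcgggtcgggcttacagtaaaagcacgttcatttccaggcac
The 2 Runx1 promoters differ in composition, with 45.6% G and C at the upstream site and 67.6% at the downstream one. The upstream promoter holds 3 E-boxes and the downstream one holds 0. Over the whole 300-base RefSeq window, which adds 50 bases after the start, 72.3% of all 32851 promoters hold an E-box. None of the 8 member windows holds a GATA motif (AGATAA with its variants TGATAA or AGATAG or TGATAG, on either strand), which 29.8% of all promoters hold, nor a C/EBP motif (TTGCNNAA), which 10.8% hold. The RUNX motif (TGTGGT or TGCGGT on either strand, 22.4% of all promoters) matched 2 times in the upstream Runx1 window and in no other member window. Both matches lie 28 bases or more after the start, on the opposite strand, within chr16:92826033-92826046.
Runx1 RUNX motif pair, in capitals: ACCACAgaACCACA
These matches describe letters in a short window and say nothing of binding. Motifs outside these windows were not searched, and the GATA site of the Gata1 promoter named earlier was not located.

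Signals are linear MAS5 units, scaled by the authors so that both arrays share 1 mean. The pooled median over the 2 arrays, 134.7 units, served as a floor, and a ratio with 1 side under it is a lower bound, written "at least". Germ cell, lens, hair and sensory genes, which serve as background, had a 95th percentile of 188.5 units (29 probe sets of 24 genes), so a signal between the floor and that value may be background. The disagreement among probe sets of 1 gene was taken over probe sets above the floor on both arrays. Its pooled SD was 0.73 in log2 units (1.65-fold, 4402 probe sets of 1766 genes). It does not measure variation between arrays, sorts or mice and does not replace replicate error. The sort genes followed the labels: Siglecf gave 6977 units in eosinophils against 112 units in dendritic cells, and H2-Aa gave 155 units in eosinophils against 34015 units in dendritic cells. Itgam (CD11b) gave 227 and 87.1 units in eosinophils and dendritic cells, and Itgax (CD11c) gave 4846 and 5994 units.

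Of the 9 members on the array, 8 were measured, that is, above the floor in at least 1 population. The eosinophil array was 4-fold or more brighter for 3 of them, Gata1, Cebpb and Runx1, and the dendritic cell array for 0. With the mean of all probe sets of a gene the counts were 1 (Gata1) and 1 (Trib1), and the Runx1 probe sets pointed both ways. Among all 7994 measured genes, 5.35% passed 4-fold towards eosinophils and 5.35% towards dendritic cells. Counted by probe set, 4 of the 15 measured member probe sets passed 4-fold towards eosinophils, against 4.76% of all 12510 named ones, and 1 passed it towards dendritic cells, against 5.12%. At 2-fold, 4 members were brighter in eosinophils, with Zfpm1 the added one, against 19.0% of all genes, and 2 were brighter in dendritic cells, Cebpa and Trib1, against 15.5% of all genes. The median log2 difference (eosinophils minus dendritic cells) was 1.04 over the 8 members and 0.16 over all measured genes. Scaling matters here: the hybridisation spike controls gave 2.06 times the signal on the eosinophil array, and with the arrays centred on them the all-gene median became -0.62, and 161 genes were 4-fold brighter in eosinophils against 1151 in dendritic cells. On that scale 2 members, Gata1 and Cebpb, stayed 4-fold brighter in eosinophils, and 2, Cebpa and Trib1, were 4-fold brighter in dendritic cells.

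**Figure D1:**
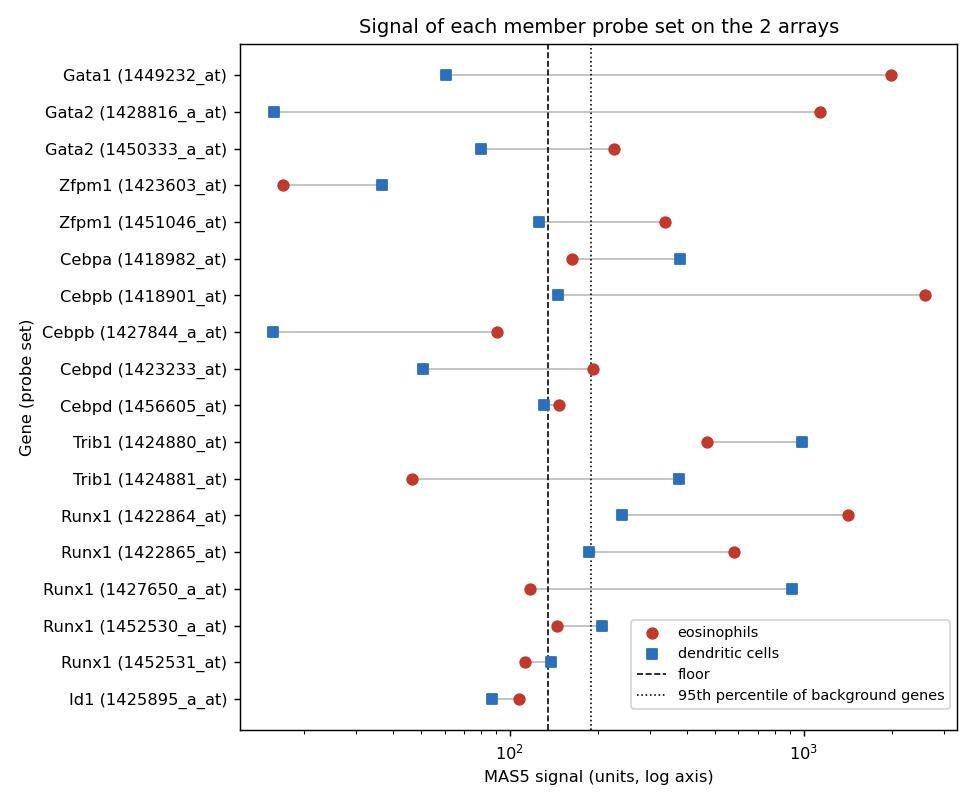
MAS5 signal (log axis) of the 18 member probe sets, with 1 point for eosinophils (circle) and 1 for dendritic cells (square) in each row; the dashed line is the floor (134.7 units) and the dotted line the 95th percentile of background genes (188.5 units). Gata1, a Gata2 probe set, Cebpb and 2 Runx1 probe sets lie to the right in eosinophils, while another Runx1 probe set lies to the right in dendritic cells.

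Gata1 had 1 probe set, 1449232_at, with 1979 units in eosinophils against 60.8 units in dendritic cells. The eosinophil signal was far above background and the dendritic cell signal was below the floor. Gata1 was therefore at least 14.7-fold brighter in eosinophils (3.88 on the log2 scale). In sorted bulk RNA, a different share of cells of 1 type and a different amount of transcript per cell cannot be told apart. Gata1 kept its place at least 4-fold brighter in eosinophils under every scaling and floor tried. With 1 probe set, it could not change under the other probe set rules.

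Gata2, the GATA factor of earlier progenitors and of mast cells and basophils, had 2 probe sets that differed in size but not in direction. Probe set 1428816_a_at gave 1137 units in eosinophils against 15.8 units in dendritic cells, at least 8.44-fold. Probe set 1450333_a_at gave 226 units in eosinophils against 79.6 units in dendritic cells, at least 1.68-fold. Because the second has the higher mean log2 signal it stood for the gene, so Gata2 is not among the 3 genes counted at 4-fold. The dendritic cell signal was under the floor for both.

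Zfpm1 was brighter in eosinophils on the only probe set that rose above the floor. Probe set 1451046_at gave 338 units in eosinophils against 126 units in dendritic cells, at least 2.51-fold. The other, 1423603_at, was under the floor on either array, at 16.9 units in eosinophils against 36.8 units in dendritic cells, and gave no ratio. The FOG-1 transcript was thus detectable in eosinophils, and in dendritic cells it could not be told from the floor.

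Markers of other cells that use GATA factors were read beside these values. Of 12 mast cell and basophil markers on the array, 0 lay above the floor in eosinophils and 2 did in dendritic cells. The 2 were Kit and Tpsab1, and Tpsab1 gave 157 units in dendritic cells, within the background range. The 12 markers summed to 579 units in eosinophils against 1095 units in dendritic cells. Sums over marker lists, here and below, include signals under the floor. Cpa3, a mast cell carboxypeptidase, gave 57.0 units in eosinophils against 84.8 units in dendritic cells, and the IgE receptor chain Ms4a2 gave 47.0 and 107 units. Kit, the stem cell factor receptor, gave 110 units in eosinophils against 291 units in dendritic cells. Of 9 erythroid and megakaryocyte markers on the array, 2 lay above the floor in eosinophils: the platelet chemokines Pf4 (432 units in eosinophils, 50.1 units in dendritic cells) and Ppbp (290 and 144 units). Their summed signal was 1081 units in eosinophils against 449 units in dendritic cells, and Hba-a1, Alas2, Itga2b and Gp9 were under the floor on both arrays. What Pf4 and Ppbp contribute to the GATA signals was not tested.

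The partners and antagonists of GATA factors were brighter in eosinophils more often than in dendritic cells. Of 15 listed genes, 12 were measured, 4 passed 4-fold towards eosinophils and 0 towards dendritic cells, and their median log2 difference was 0.70, against 0.16 over all genes. Nfe2, a leucine zipper factor of megakaryocytes and a partner of small Maf proteins, gave 1639 units in eosinophils against 30.2 units in dendritic cells, at least 12.2-fold. Lyl1, a basic helix-loop-helix factor related to Tal1, gave 922 units in eosinophils against 110 units in dendritic cells, at least 6.84-fold. Gfi1b, a zinc finger repressor of the erythroid and megakaryocyte lineages, gave 743 units against 67.1 units in dendritic cells, at least 5.52-fold. Myb, a progenitor factor, gave 627 units against 42.8 units in dendritic cells, at least 4.65-fold, but its other 2 probe sets reached only 152 and 171 units in eosinophils. Lmo2, the bridging protein of GATA complexes, gave 1523 units in eosinophils against 444 units in dendritic cells (1.78 on the log2 scale), while its binding partner Ldb1 gave 276 and 442 units.

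Spi1, which encodes the GATA1 antagonist PU.1, was close on both arrays with 1283 units in eosinophils against 1493 units in dendritic cells. Fli1, an ETS factor, was also close, with 1597 and 1110 units. Gfi1, Klf1 and Zfpm2 lay under the floor on both arrays. The count at 4-fold became 2 under spike centring and 2 with the floor at the 95th percentile of background genes.

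The C/EBP members separated. Cebpb, probe set 1418901_at, gave 2584 units in eosinophils against 146 units in dendritic cells, 17.7-fold or 4.15 on the log2 scale. Its dendritic cell signal was above the floor but under the 95th percentile of background genes, so the fold may be a lower bound. The second Cebpb probe set, 1427844_a_at, was under the floor on both arrays, at 90.5 units in eosinophils against 15.6 units in dendritic cells, and averaging both lowered the log2 difference to 1.84.

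Cebpa, the factor that starts the granulocyte programme, leaned the other way. Its single probe set, 1418982_at, gave 163 units in eosinophils against 381 units in dendritic cells, 2.33-fold brighter in dendritic cells. The eosinophil signal was within the background range, so the transcript was seen above background in dendritic cells only.

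Cebpd, a stress-induced family member, was dim throughout. Probe set 1423233_at gave 192 units in eosinophils against 50.8 units in dendritic cells, at least 1.42-fold. Probe set 1456605_at gave 147 and 131 units, at least 1.09-fold. As lower bounds, neither exceeded the spread between probe sets of 1 gene, and the sign of 1456605_at turned negative under spike centring (-0.48), array median centring (-0.099) and quantile normalization (-0.099).

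Trib1 was brighter in dendritic cells on both probe sets, the reverse of Gata1. Probe set 1424880_at gave 468 units in eosinophils against 988 units in dendritic cells, 2.11-fold. Probe set 1424881_at gave 46.5 units in eosinophils, under the floor, and 378 units in dendritic cells, at least 2.80-fold. The transcripts of Trib1 and of Cebpa, whose protein TRIB1 helps to degrade, were thus 2-fold or more brighter in dendritic cells. Both log2 differences were negative under every alternative tried.

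Relatives of the C/EBP factors and partners of the Tribbles proteins had 9 listed genes, of which 8 were measured, 0 were 4-fold brighter in eosinophils and 1 was in dendritic cells. That 1 was Nfil3, a leucine zipper repressor needed for cross-presenting dendritic cells, with 923 units in eosinophils against 4311 units in dendritic cells (4.67-fold). Their median log2 difference was -0.37. Cop1, the ubiquitin ligase that Tribbles proteins bring to C/EBP-alpha, gave 1069 units in eosinophils against 799 units in dendritic cells. Atf4, the integrated stress factor, gave 1997 and 3921 units. Cebpg, a short partner of the other C/EBP factors, gave 693 and 285 units on 1 probe set and 375 and 507 units on another. Dusp1, a phosphatase of MAP kinases and no C/EBP relative, was also on this list, at 6334 and 8772 units.

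Cebpb, Cebpd, Trib1 and Id1 are known to respond quickly to stimuli, so early response genes were read beside them. Of 13 measured, 1 passed 4-fold towards eosinophils, Egr2 (2636 units in eosinophils, 287 units in dendritic cells), and 6 passed it towards dendritic cells, with a median log2 difference of -1.40. The 6 were Fosb, Jun, Junb, Atf3, Nr4a1 and Hspa1b, and Fosb was the furthest apart, with 96.7 units in eosinophils against 2322 units in dendritic cells. The brightest of the others were high on both arrays. Dusp1 gave 6334 units in eosinophils against 8772 units in dendritic cells, and Fos gave 3288 and 5467 units. Egr1 gave 4137 and 3091 units, and Zfp36 gave 1076 and 2840 units. Cebpb stood on the opposite side from most of the list, and Trib1 stood on the same side. What handling of the cells contributes to these values was not tested.

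**Figure D2:**
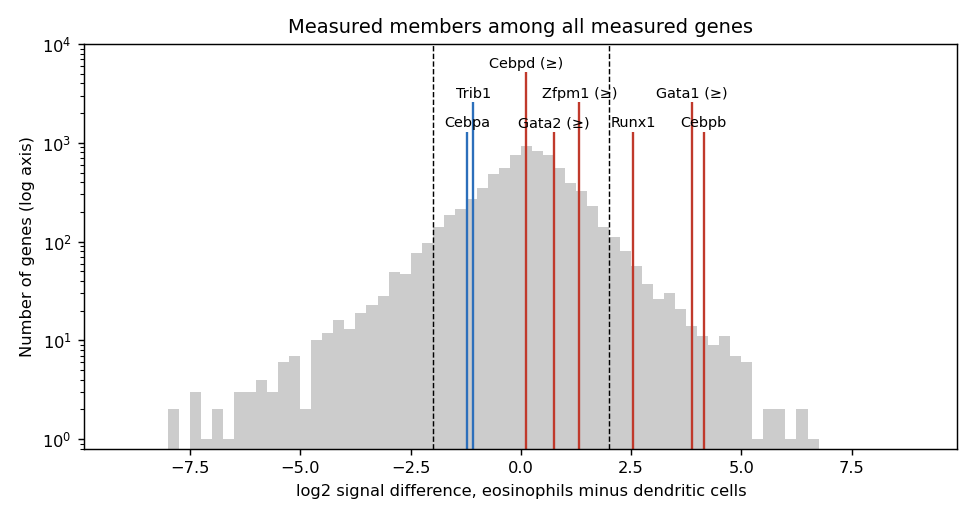
Number of genes (log axis) at each log2 signal difference, eosinophils minus dendritic cells, for all 7994 measured genes (grey), with the 8 measured members as vertical lines; dashed lines mark 4-fold, and ≥ marks a lower bound. Cebpb (4.15), Gata1 (3.88) and Runx1 (2.55) lie beyond the right dashed line, and Cebpa (-1.22) and Trib1 (-1.08) lie left of 0.

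Runx1 had 5 probe sets, and they did not point the same way. Probe set 1422864_at gave 1415 units in eosinophils against 241 units in dendritic cells, 5.86-fold brighter in eosinophils. Probe set 1422865_at gave 577 units in eosinophils against 186 units in dendritic cells, 3.10-fold. Both come from the same sequence record in the platform annotation, and both were brighter in eosinophils.

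Probe set 1427650_a_at, from another record, gave 117 units in eosinophils, under the floor, and 911 units in dendritic cells, at least 6.76-fold brighter in dendritic cells. Probe sets 1452530_a_at (145 units in eosinophils, 206 units in dendritic cells) and 1452531_at (113 and 138 units), from yet another record, were dim on both arrays. The high signal thus sat on different Runx1 probe sets in the 2 populations.

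Of 2839 genes with at least 2 measured probe sets, 36 had probe sets at least 2-fold apart in both directions. At 4-fold in both directions there was 1 gene, Runx1. As many as 5 measured probe sets, or more, were found for 128 genes, Runx1 included. The 5 probe sets spanned -2.76 to 2.55 on the log2 scale. The pooled SD of 0.73 covers only probe sets above the floor on both arrays, which 1427650_a_at and 1452531_at were not. The mean over all its probe sets gave a log2 difference of 0.08, so no single direction is given for Runx1 as a gene. Runx1 is known to be transcribed from 2 promoters and to be spliced and terminated in several ways. Which transcripts each probe set detects was not tested.

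**Figure D3:**
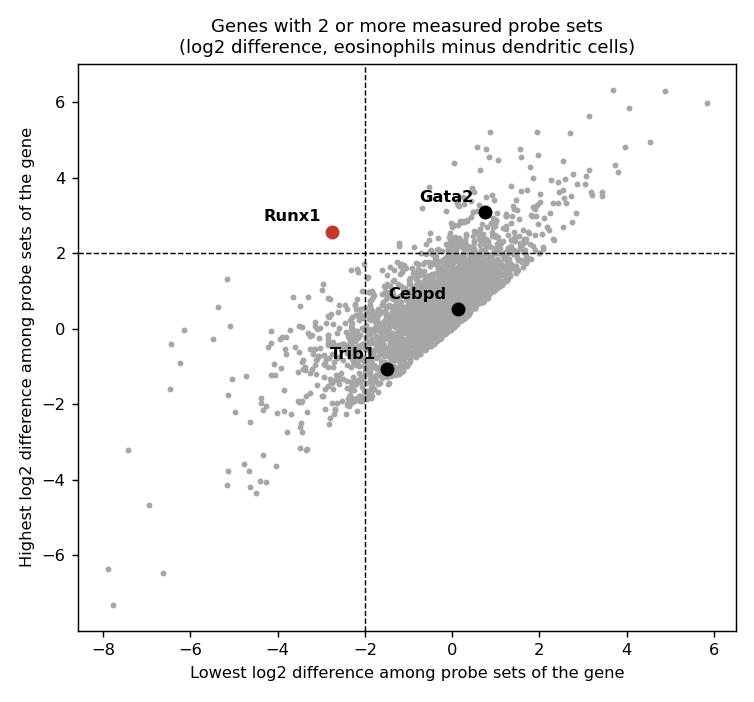
For each of 2839 genes with at least 2 measured probe sets, the lowest (horizontal axis) and highest (vertical axis) log2 difference, eosinophils minus dendritic cells, among its probe sets; dashed lines mark 4-fold in each direction. Runx1 (-2.76, 2.55) is the single point in the upper left field, and Gata2, Cebpd and Trib1 lie among the other genes.

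Among other RUNX genes and partners, 6 of the 9 listed were measured and 0 were 4-fold apart in either direction, with a median log2 difference of -0.14. Cbfb, the shared partner that stabilises RUNX proteins on DNA, gave 5476 units in eosinophils against 2521 units in dendritic cells, 2.17-fold. The corepressor Tle3 gave 2397 units in eosinophils against 5427 units in dendritic cells, and Etv6, an ETS repressor, gave 64.7 and 478 units. Runx3, which acts in dendritic cells and T cells, gave 81.7 units in eosinophils against 155 units in dendritic cells, within the background range.

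Id1 was not detectable on these arrays: its single probe set, 1425895_a_at, gave 107 units in eosinophils against 87.3 units in dendritic cells, both under the floor, and no ratio is given. Of the 6 other ID and E protein genes, 5 were measured and 0 were 4-fold apart, with a median of 0.28. Id2, the family member needed for several dendritic cell subsets, gave 2339 units in eosinophils against 3312 units in dendritic cells, above background on both. Id3 was under the floor on both arrays. Among E proteins, Tcf4, the plasmacytoid dendritic cell factor, gave 335 and 980 units in eosinophils and dendritic cells on the probe set with its highest mean log2 signal, while another went the other way with 393 and 285 units. Tcf12 gave 632 and 285 units.

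BMP receptors and SMAD proteins, which control Id1 in many cells, had 10 listed genes, among them the inhibitory Smad6 and Smad7. Of these, 8 were measured, 0 were 4-fold brighter in eosinophils and 1, the receptor Acvrl1, was in dendritic cells (46.5 units in eosinophils, 552 units in dendritic cells, at least 4.10-fold). With the floor at the 95th percentile of background genes, 0 were 4-fold apart in either direction. The signal transducers Smad1 (866 and 886 units) and Smad4 (1341 and 1089 units) were near equal, the inhibitor Smad7 gave 1062 and 646 units, and the type II receptor Bmpr2 gave 639 units in eosinophils against 177 units in dendritic cells.

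Genes of the eosinophil lineage were mostly brighter in eosinophils, with 6 of 8 measured genes past 4-fold, 0 past it in dendritic cells and a median log2 difference of 3.83. Siglecf, one of the 6, belongs to the sort, so the list is not independent of it. Epx, the eosinophil peroxidase, gave 837 units in eosinophils against 9.61 units in dendritic cells. Alox15, a lipoxygenase, gave 9996 units in eosinophils against 20.5 units in dendritic cells, and Adgre1 (F4/80) gave 12076 and 327 units. Ccr3, the eotaxin receptor, gave 4377 and 123 units, and Csf2rb2, the mouse beta chain specific for IL-3, gave 10694 and 2065 units. Csf2rb, also listed, leaned slightly the other way, at 5868 units in eosinophils against 6670 units in dendritic cells. Il5ra, the alpha chain of the IL-5 receptor, gave 526 units against 65.9 units in dendritic cells, at least 3.90-fold. Prg2, which encodes major basic protein and whose human promoter GATA-1 activates, was under the floor with 73.0 and 7.40 units, and so was Prg3 with 3.54 and 4.95 units.

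Of 10 granule genes that depend on C/EBP-epsilon or mark the neutrophil precursor stages around it, 3 were measured and 1 was 4-fold brighter in eosinophils. This was Mmp9, a gelatinase, with 1195 units in eosinophils against 83.0 units in dendritic cells (at least 8.87-fold). Ltf, Camp, Ngp, Lcn2, Chil3, Mpo and Prtn3 were under the floor on both arrays. Of 9 neutrophil markers on the array, 3 lay above the floor in eosinophils, Cxcr2 (570 units in eosinophils, 4.48 units in dendritic cells), Mmp8 (369 and 9.43 units) and S100a8 (147 and 176 units). Their summed signal was 1552 units in eosinophils against 599 units in dendritic cells, and their part in the Cebpb signal was not tested.

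Markers of other cells were read once for both arrays. Dendritic cell markers had 9 of 13 measured genes past 4-fold in dendritic cells and 0 in eosinophils. The 9 were the class II genes H2-Aa, H2-Ab1, H2-Eb1 and Cd74, and Dpp4, Itgae, Irf8, Ccr7 and Flt3. Irf8, a factor of dendritic cell development, gave 16.1 units in eosinophils against 4835 units in dendritic cells. Of 12 housekeeping genes, 2 were past 4-fold in dendritic cells, Eef2 (999 and 9489 units) and Rplp0 (1094 and 9630 units), both genes of the translation machinery. Macrophage and monocyte markers had a summed signal of 1414 units in eosinophils against 12277 units in dendritic cells. Lyz2 gave 99.2 and 7813 units, and Cd14 was under the floor in eosinophils and at 2641 units in dendritic cells. Only 1 of these markers, Csf1r, lay above the floor in eosinophils, at 763 units against 1121 units in dendritic cells. Lymphocyte markers summed to 781 units in eosinophils against 4679 units in dendritic cells. The T cell gene Cd3e led them in eosinophils (336 and 557 units), and Cd8a, which dendritic cells can also express, led them in dendritic cells (141 and 3732 units). Another Cd8a probe set was under the floor on both arrays, at 94.0 and 123 units. Epithelial markers summed to 1873 and 1073 units, led by Krt18 (870 and 60.7 units). Endothelial and stromal markers summed to 1915 and 903 units, led by Pecam1 (647 and 55.8 units), which leukocytes also express. Their part in the Cebpa, Trib1 and Runx1 values was not tested.

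Genes with signals nearest to those of each member were found by the distance between floored log2 signals over the 2 arrays, with 1 probe set a gene. Gata1, Gata2, Zfpm1 and Cebpd were under the floor in dendritic cells. Their distance to genes also under it there reflects the eosinophil signal alone. The 5 nearest to Gata1 were Fam111a (distance 0.053), Ampd3 (0.074), Dio2 (0.085), Denn2b (0.10) and Rgcc (0.12), all with 1841 to 2155 units in eosinophils. All were under the floor in dendritic cells, where Dio2 gave 12.5 units and Denn2b gave 130 units. The 2 nearest to Cebpb were Cd84 (2626 units in eosinophils, 141 units in dendritic cells) and the chemokine receptor Ccr1 (2599 and 130 units). The 2 nearest to the brightest Runx1 probe set were Mknk1 (1415 and 245 units) and Anp32a (1329 and 235 units). For Trib1 they were Mrps14 and Phyh, for Cebpa Usp15 and Banf1, for Zfpm1 Macroh2a2 and Vps25, for Gata2 Zfp689 and Zfp943, and for Cebpd Adhfe1 and Polr1a, each within a distance of 0.095.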

How the data were processed

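RNA of sorted eosinophils and dendritic cells was measured on 1 expression array each, and the values were used as deposited. They are linear signal intensities for which the submitters' processing notes name MAS5 (5.0), and the authors scaled both arrays alike. The mean without the lowest and highest 2% was 500.2 for eosinophils and 500.3 for dendritic cells. No genome build is stated for them, and neither detection calls nor scanner files were used. The precision is limited by the number of arrays.

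Of 22690 probe sets, 64 were controls. The platform annotation gave 1 gene to 20393, several to 691 and none to 1606, and symbols of 20364 were updated through RefSeq (GRCm38.p6). For a gene with several probe sets, the brightest by mean log2 signal was taken. Log2 differences, eosinophils minus dendritic cells, were taken after the floor with Python 3.11.15 and pandas 2.3.3, and 4-fold was the mark. The procedure was tested on simulated data. The members, the lists and the rule for named genes (all members, list genes past 4-fold and up to 4 of the brightest others, nearest genes) were chosen with earlier results of these data known. Alternatives were 4 other scalings, 2 other floors, 2 other probe set rules and 2 other folds.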

Additional observations from a re-analysis of the deposited data

How the results depend on the processing

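Each array stands for its population without a replicate, so what follows shows only how far the processing moves the values, with the spread between probe sets of a gene (0.73 on the log2 scale) as the tolerance. No paired analysis was possible because each population had 1 array.

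Gata1 stayed at least 4-fold brighter in eosinophils under the 4 other scalings and 2 other floors, with a log2 difference of 3.36 to 5.02. The 2 other probe set rules could not change it, since it has 1 probe set. The highest value came with the floor at the 25th percentile, which lets a dimmer dendritic cell signal count. The median over members (1.04) was 1.83 under quantile normalization, 0.31 under spike centring and 0.24 with the dimmest probe set of each gene. That last median leaves out Cebpb and Zfpm1, whose dimmest probe sets were under the floor on both arrays. The count of members at 4-fold (3 in eosinophils, 0 in dendritic cells) was 1 and 1 with the mean of all probe sets, 2 and 2 under spike centring, and 4 and 2 at 2-fold. Runx1 reversed to -0.036 with its dimmest probe set, since its probe sets disagree. Gata2 ranged from 0.23, under spike centring, to 3.08, and moved by the tolerance or more in 4 of 8 alternatives. It reached 3.05 under quantile normalization, where its other probe set stood for it. The counts over all genes, eosinophils and dendritic cells, of 428 and 428 were 161 and 1151 under spike centring, 844 and 665 with the floor at the 25th percentile, 1519 and 1241 at 2-fold, and 105 and 124 at 10-fold; with the dimmest probe set 280 were brighter in eosinophils. Cebpb ranged from 1.84 to 4.18, Zfpm1 from 0.39 to 1.43, Cebpa from -2.02 to -1.01, Trib1 from -2.12 to -1.05 and Cebpd from -0.48 to 0.51. These ranges cover 8 alternatives for Cebpa and Trib1, 7 for Cebpb and Cebpd and 6 for Zfpm1. In the remaining alternatives the gene was under the floor used on both arrays and gave no value. Under spike centring the counts towards dendritic cells were 2 for the C/EBP relatives, 2 for the RUNX partners and 1 for the ID and E protein genes. Signals near the floor limit what can be said of Cebpd, Id1 and the second Zfpm1 and Cebpb probe sets.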
